A study of Mus musculus with 22 samples.

Results

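The T-cell receptor complex and its coreceptors are described here by 10 genes, *Cd3d*, *Cd3e*, *Cd3g*, *Cd247*, *Cd4*, *Cd8a*, *Cd8b1*, *Trac*, *Trbc1* and *Trbc2*. They were chosen by name, as the constant chains of the alpha-beta receptor, the signalling subunits bound to them and the coreceptors, and were read from all 22 libraries of brown adipose tissue (BAT) RNA. All 10 were among the 55487 gene identifiers counted. The filter on low counts left 9 of them among 17869 genes in untreated mice, where *Cd3d* did not pass, and all 10 among 18899 genes in virus-injected mice.

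The alpha-beta receptor recognises a peptide held by an MHC molecule, through 1 alpha and 1 beta chain that each join a variable to a constant region. The chains carry no signalling tail of their own, and the CD3 gamma, delta and epsilon chains and the zeta chain encoded by *Cd247* pass the signal on through motifs that the kinase LCK phosphorylates. CD4 binds MHC class II and marks helper and regulatory T cells, and CD8 binds MHC class I and marks cytotoxic T cells. Adipose tissue holds resident T cells between its adipocytes, in numbers that vary with age, diet and temperature.

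All mice were labelled male. The untreated cohort held 5 wild-type (WT) and 5 knockout (KO) libraries of CPEB2, a cytoplasmic RNA-binding protein that regulates translation, from mice of 21 to 25 weeks that by the methods had been without food for some hours. The KO is global, so any CPEB2 in T cells was lost as well as that of adipocytes. The other cohort held 3 libraries each of WT + AAV-GFP, KO + AAV-GFP, WT + AAV-PRDM16 and KO + AAV-PRDM16. At 16 weeks these mice received an adeno-associated virus (AAV) carrying GFP or flag-tagged PRDM16, a transcription factor of brown fat identity, in 30 µl injected into the interscapular BAT, and the tissue was taken after 9 weeks. No uninjected mice belonged to the second cohort, so GFP virus cannot be compared with none, and the cohorts were never tested against each other.

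Totals ran from 55320927 to 162721202 counts per untreated library and from 61636889 to 143005309 per AAV library, so that 3 counts, the limit that a count of 0 allows, came to between 0.0186 and 0.0596 CPM (counts scaled to a common library size). Values in CPM are relative to library sizes scaled by TMM, a method that balances the bulk of genes between libraries. *Cpeb2* lay between 10.5 and 14.0 CPM in the AAV WT and between 4.33 and 5.55 CPM in the AAV KO libraries, and *Prdm16* between 45.9 and 128.0 CPM with AAV-PRDM16 against 23.9 to 40.2 CPM with AAV-GFP. Among untreated libraries, KO library 1 held 11.7 CPM of *Cpeb2*, within the WT range of 7.69 to 14.3 CPM and above the 2.1 to 5.78 CPM of the other KO libraries. Y-linked transcripts were at or below 1.17 CPM in 6 of the 10 untreated libraries (WT 3 and 5, KO 1, 3, 4 and 5) against 77.1 CPM or more in the other 4, although all are labelled male. *Ucp1*, the thermogenic marker of BAT, was at 1180 CPM or more in all 22 libraries. WT libraries 1 and 2 stood apart in other genes, *Pou2f1* being at 14.8 and 17.9 CPM there and at 2.86 to 7.67 CPM in the other 8. For the untreated genes that met a threshold, fold changes are given without KO 1. Without WT 1 and 2, and with Y-linked RNA as a term, the count of such genes is given, with the range of fold changes over all alternatives.

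Sequence bears on how far the 10 counts can be told apart. *Trbc1* and *Trbc2* are tandem copies on the plus strand of chromosome 6, with first exons of 375 bases at chr6:41538218-41538592 and chr6:41546730-41547104 (GRCm38, GENCODE M21). These exons were identical at 374 bases. Counted from the first base of the exon, the single difference is C260A, with the *Trbc1* base first. It is shown in capitals within 121 bases of coding exon 1 (chr6:41538417-41538537 and chr6:41546929-41547049), because reads from the rest of this exon fit both genes.

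Trbc1: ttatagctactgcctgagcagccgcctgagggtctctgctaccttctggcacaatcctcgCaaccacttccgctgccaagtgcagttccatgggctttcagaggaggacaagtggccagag
Trbc2: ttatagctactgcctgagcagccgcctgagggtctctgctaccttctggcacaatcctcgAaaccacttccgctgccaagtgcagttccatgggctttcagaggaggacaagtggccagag

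The split of beta-chain counts between these genes is therefore uncertain, while their sum is less so. *Cd247* (chromosome 1, 165788681 to 165877277, plus strand) has another neighbour: 3007 of its 5329 exon bases, 56.4%, are also exon of *Pou2f1*, a broadly expressed transcription factor gene on the opposite strand. *Pou2f1* stood at 10.4 to 15.9 CPM in AAV libraries, and no source used here states whether the counting used strand, so part of the *Cd247* counts may be reads of *Pou2f1*. *Cd3e* shared 135 exon bases with the antisense gene *Gm48719*, which had 0 counts in the AAV cohort.

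*Cd3g*, *Cd3d* and *Cd3e* lie side by side on chromosome 9, at 44969572 to 44980431 (minus strand), 44981786 to 44987339 (plus) and 44998740 to 45009627 (minus). *Cd8b1* (71322788 to 71337494, plus) and *Cd8a* (71373427 to 71379173, plus) are neighbours on chromosome 6, which also carries *Cd4* (124864692 to 124888221, minus). *Trac* occupies 54220521 to 54224206 on the plus strand of chromosome 14. RefSeq promoter sequence (GRCm38.p6) matched 5 of the 10 genes, *Cd3d*, *Cd3e*, *Cd3g*, *Cd247* and *Cd8a*. The 250 bases before each start site were searched on both strands for AGGAAG, a core bound by ETS factors, for the E-box CAGCTG and for TGTGGT, a core bound by RUNX factors. AGGAAG occurred in *Cd3d*, *Cd3e* and *Cd247*, and in 29.5% of all 32851 promoters. Neither CAGCTG nor TGTGGT, present in 13.0% and 14.0% of promoters, occurred in any of the 5. The promoters with a match are printed because they are the ones among these 5 genes that hold it, with the match or its reverse complement in capitals.

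Cd3d, chr9:44981536-44981785, plus strand: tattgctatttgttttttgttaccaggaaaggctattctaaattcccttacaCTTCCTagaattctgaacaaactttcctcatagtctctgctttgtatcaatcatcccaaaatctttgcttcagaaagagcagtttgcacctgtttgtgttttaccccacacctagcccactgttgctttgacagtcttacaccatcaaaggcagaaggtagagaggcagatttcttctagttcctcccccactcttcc
Cd3e, chr9:45009612-45009861, minus strand: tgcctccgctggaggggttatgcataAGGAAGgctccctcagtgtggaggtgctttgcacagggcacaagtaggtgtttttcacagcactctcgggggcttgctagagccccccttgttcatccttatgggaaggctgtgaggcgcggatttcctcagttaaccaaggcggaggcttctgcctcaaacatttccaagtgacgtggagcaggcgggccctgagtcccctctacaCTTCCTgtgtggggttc
Cd247, chr1:165788431-165788680, plus strand: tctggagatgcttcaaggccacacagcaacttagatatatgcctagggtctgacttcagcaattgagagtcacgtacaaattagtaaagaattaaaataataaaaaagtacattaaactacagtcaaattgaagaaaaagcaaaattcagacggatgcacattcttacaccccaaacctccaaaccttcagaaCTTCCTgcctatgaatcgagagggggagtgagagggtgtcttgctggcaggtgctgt

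The match lies 198 bases before the start in *Cd3d* and 57 in *Cd247*, and *Cd3e* has 2, at 224 and 17 bases. 2 or more matches occurred in 6.25% of promoters.

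In virus-injected BAT all 10 genes had lower mean levels with AAV-PRDM16 than with AAV-GFP, in both genotypes, and the level between AAV-GFP libraries varied widely. Summed over the 10 genes, the AAV-GFP libraries held 2.98, 23.0 and 14.0 CPM in WT and 10.3, 9.63 and 34.4 CPM in KO. The AAV-PRDM16 libraries held 2.27, 2.12 and 1.74 CPM in WT and 1.7, 2.37 and 3.26 CPM in KO. WT + AAV-GFP library 1 lay inside the AAV-PRDM16 range, and the other 5 AAV-GFP libraries lay above it. In bulk RNA, fewer T cells and less receptor RNA per cell cannot be told apart.

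**Figure D1:**
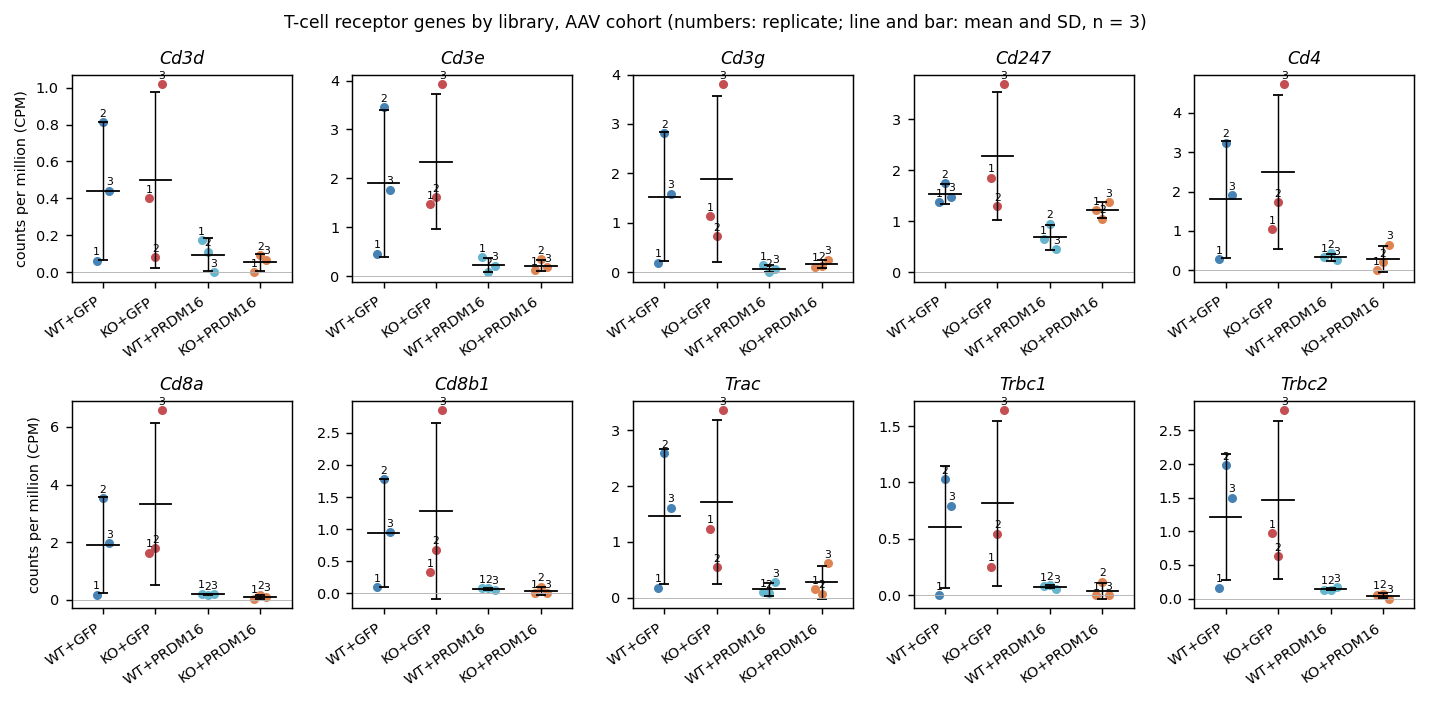
Level of each gene in each library of the AAV cohort, in CPM on a linear axis that differs between panels (points numbered by replicate, horizontal line and bar for the mean and SD of 3 libraries). KO + AAV-GFP library 3 was the highest in every panel, at 6.58 CPM for Cd8a. WT + AAV-GFP library 1 lay near the AAV-PRDM16 libraries in every panel but that of Cd247. There, at 1.37 CPM, it lay beside the other WT + AAV-GFP libraries and level with the highest AAV-PRDM16 library.

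Of the CD3 chains, *Cd3e*, which pairs with both gamma and delta, was measured at 0.457, 3.46 and 1.77 CPM in WT + AAV-GFP and at 1.47, 1.61 and 3.93 CPM in KO + AAV-GFP. With AAV-PRDM16 it was at 0.386, 0.0885 and 0.212 CPM in WT and at 0.119, 0.342 and 0.184 CPM in KO. *Cd3e* was the only one of the 10 genes whose 6 AAV-GFP libraries all lay above all 6 AAV-PRDM16 libraries, a pattern that 0.487% of all genes tested showed. *Cd3g* was at 0.188, 2.81 and 1.59 CPM in WT + AAV-GFP and at 1.13, 0.727 and 3.81 CPM in KO + AAV-GFP. With AAV-PRDM16 it ranged from 0.0 to 0.251 CPM, a range that took in only WT + AAV-GFP library 1. *Cd3d* was the lowest of the CD3 chains, at 0.0627, 0.813 and 0.442 CPM in WT + AAV-GFP, at 0.402, 0.0808 and 1.02 CPM in KO + AAV-GFP, and between 0.0 and 0.175 CPM with AAV-PRDM16, so that 2 of its 6 AAV-GFP libraries overlapped.

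*Cd247*, the zeta chain, behaved otherwise. It was at 1.37, 1.74 and 1.48 CPM in WT + AAV-GFP and at 1.85, 1.29 and 3.69 CPM in KO + AAV-GFP. With AAV-PRDM16 it kept 0.643, 0.951 and 0.453 CPM in WT and 1.22, 1.05 and 1.37 CPM in KO. The WT groups did not overlap and the KO groups did. It took 65.9% of the counts of the 4 signalling subunits in WT + AAV-GFP library 1 (exact 95% interval 59.5 to 72.0%, 232 counts), and 19.7% to 38.0% in the other 5 AAV-GFP libraries. In the AAV-PRDM16 libraries that share was between 47.8% and 84.2%. All intervals cover counting error only, and the low counts were uneven: a count of 4 was more frequent in the AAV table (9336 values) than a count of 3 (6580) or 5 (3403).

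The coreceptor *Cd4* was at 0.278, 3.24 and 1.9 CPM in WT + AAV-GFP and at 1.04, 1.73 and 4.73 CPM in KO + AAV-GFP. It was at 0.328, 0.431 and 0.251 CPM in WT + AAV-PRDM16 and at 0.0, 0.204 and 0.651 CPM in KO + AAV-PRDM16. The single overlapping AAV-GFP library was again WT library 1. *Cd8a*, the chain common to both forms of CD8, was at 0.188, 3.53 and 1.97 CPM in WT + AAV-GFP and at 1.64, 1.79 and 6.58 CPM in KO + AAV-GFP. It stayed between 0.0496 and 0.211 CPM in every AAV-PRDM16 library. *Cd8b1*, the chain of the CD8 heterodimer of conventional cytotoxic T cells, was at 0.0986, 1.78 and 0.952 CPM in WT + AAV-GFP, at 0.328, 0.682 and 2.85 CPM in KO + AAV-GFP, and between 0.0 and 0.102 CPM with AAV-PRDM16.

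The constant genes were high in the same libraries. *Trac*, the alpha constant region, was at 0.179, 2.59 and 1.61 CPM in WT + AAV-GFP, at 1.24, 0.547 and 3.36 CPM in KO + AAV-GFP and between 0.074 and 0.618 CPM with AAV-PRDM16, a range that took in WT + AAV-GFP library 1 and KO + AAV-GFP library 2. *Trbc2* was at 0.161, 1.98 and 1.5 CPM in WT + AAV-GFP, at 0.968, 0.628 and 2.8 CPM in KO + AAV-GFP and between 0.0 and 0.164 CPM with AAV-PRDM16. *Trbc1* was at 0.0, 1.03 and 0.792 CPM in WT + AAV-GFP, at 0.253, 0.547 and 1.64 CPM in KO + AAV-GFP and between 0.0 and 0.12 CPM with AAV-PRDM16. Both beta genes were thus at or under 0.164 CPM wherever PRDM16 was delivered and at or above 0.253 CPM in 5 of 6 AAV-GFP libraries.

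Per kilobase of exon, the scale on which genes can be set beside each other, the constant genes led with AAV-GFP: *Trbc2* was at 1.94 ± 1.38 and *Trac* at 1.7 ± 1.3 CPM per kilobase (SD, n = 6). *Trbc1*, *Cd8b1* and *Cd8a* followed at 0.95 ± 0.782, 0.752 ± 0.695 and 0.719 ± 0.609, then *Cd4* at 0.534 ± 0.396, *Cd3g* at 0.524 ± 0.417, *Cd3e* at 0.519 ± 0.322, *Cd247* at 0.357 ± 0.169 and *Cd3d* at 0.259 ± 0.213. No 2 neighbours in this order differed by more than their SD. With AAV-PRDM16, *Trac* was at 0.23 ± 0.227, *Cd247* at 0.178 ± 0.0649 and *Trbc2* at 0.135 ± 0.0868 CPM per kilobase, and the other 7 genes were between 0.0355 and 0.0775. In WT + AAV-PRDM16 alone *Cd247* was at 0.128, behind *Trbc2* at 0.205 and *Trac* at 0.161.

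Whether these differences exceeded the spread between libraries was tested with edgeR's quasi-likelihood test over all 18899 genes. Averaged over both genotypes, the log2 fold change (log2FC) of AAV-PRDM16 against AAV-GFP was negative for all 10 genes. *Cd8b1* and *Trbc1* passed the filter on low counts (0.0919 CPM in 3 libraries) only through the AAV-GFP libraries. Their selection favoured lower values, and any count that holds these 2 genes includes that. The median was -3.41 for the 10 genes and -3.1 for the other 8, where the median of all genes was -0.01. None passed a false discovery rate (FDR) of 0.05, which 7 of all genes did (0.037%). All 8 that passed the filter without AAV-GFP, and the 2 that did not, were lower at an unadjusted p under 0.05, against 7.02% of all genes. All 10 met the study's looser rule of at least 2-fold at an FDR of at most 0.5, against 4.24%. The study states that rule for untreated KO against WT, and it is carried over here to the AAV libraries. *Cd3e* (-3.24, SE 0.53), *Cd3g* (-4.02, SE 0.75), *Cd8a* (-4.05, SE 0.65) and *Trbc2* (-3.98, SE 0.66) each came to an FDR of 0.0527, just above the threshold. *Cd8b1* followed at -4.37 (SE 0.88, FDR 0.0571), *Trac* at -2.97 (SE 0.73, FDR 0.0902), *Cd4* at -2.82 (SE 0.76, FDR 0.125), *Trbc1* at -3.58 (SE 1.01, FDR 0.151) and *Cd3d* at -2.73 (SE 0.94, FDR 0.283). *Cd247* had the smallest difference, -1.04 (SE 0.27, FDR 0.107).

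The call at an FDR of 0.05 depended on the fit. DESeq2 called 8 of the 10 genes, all but *Cd3d* (FDR 0.0803) and *Cd4* (FDR 0.0533), and 3.19% of all genes. edgeR called 7 without WT + AAV-GFP library 1 (1.81% of all genes) and 5 without KO + AAV-GFP library 1 (1.08%), and 0 without any other single library. RLE scaling gave 4 (0.402%) and no filter on low counts gave 5 (0.491%).

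Within each genotype the direction was the same for all 10 genes and the tests were weaker. In WT none passed an FDR of 0.05 with edgeR, as none of all genes did (0.0%), and 8 were lower at an unadjusted p under 0.05, against 5.19% of all genes. The 2 others were *Cd3d* (-2.22, SE 1.28) and *Trbc1* (-2.99, SE 1.38). In KO none passed an FDR of 0.05 (0.0% of all genes) and all 10 were lower at an unadjusted p under 0.05 (5.1%). The study's rule was met by 6 genes in WT (1.31% of all genes) and by 6 in KO (2.03%). That count fell to 0 in WT without any 1 of the WT + AAV-PRDM16 libraries, WT + AAV-GFP library 3, KO + AAV-PRDM16 library 1 or 2, and to 1 without WT + AAV-GFP library 2, and it was 9 without WT + AAV-GFP library 1 and 4 without KO + AAV-PRDM16 library 3. In KO it fell to 0 without any 1 of the KO + AAV-PRDM16 libraries or KO + AAV-GFP library 3. The share of all genes that met the rule with a library left out is not given. DESeq2 called 5 genes at an FDR of 0.05 in each genotype, with 0.804% of all genes in WT and 1.41% in KO.

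The libraries did not overlap for 4 genes in WT, *Cd3e*, *Cd3g*, *Cd247* and *Cd8b1*, where 7.76% of all genes were lower without overlap. They did not overlap for 7 genes in KO, all but *Cd3d*, *Cd247* and *Trac*, against 6.05% of all genes. The largest fold changes in KO were those of *Cd8b1* (-5.05, SE 1.3), *Trbc2* (-4.88, SE 0.99) and *Cd8a* (-4.81, SE 0.96), with edgeR FDRs of 0.31, 0.307 and 0.307. With 0 counts of *Cd8b1* and *Trbc1* in KO + AAV-PRDM16 libraries 1 and 3, leaving out library 2 took *Cd8b1* to -10.09 and *Trbc1* from -4.17 to -9.43, values that depend on the prior count and are no bound. In WT they were those of *Cd3g* (-4.46, SE 1.1, FDR 0.459) and *Cd8b1* (-3.69, SE 1.19, FDR 0.497).

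**Figure D2:**
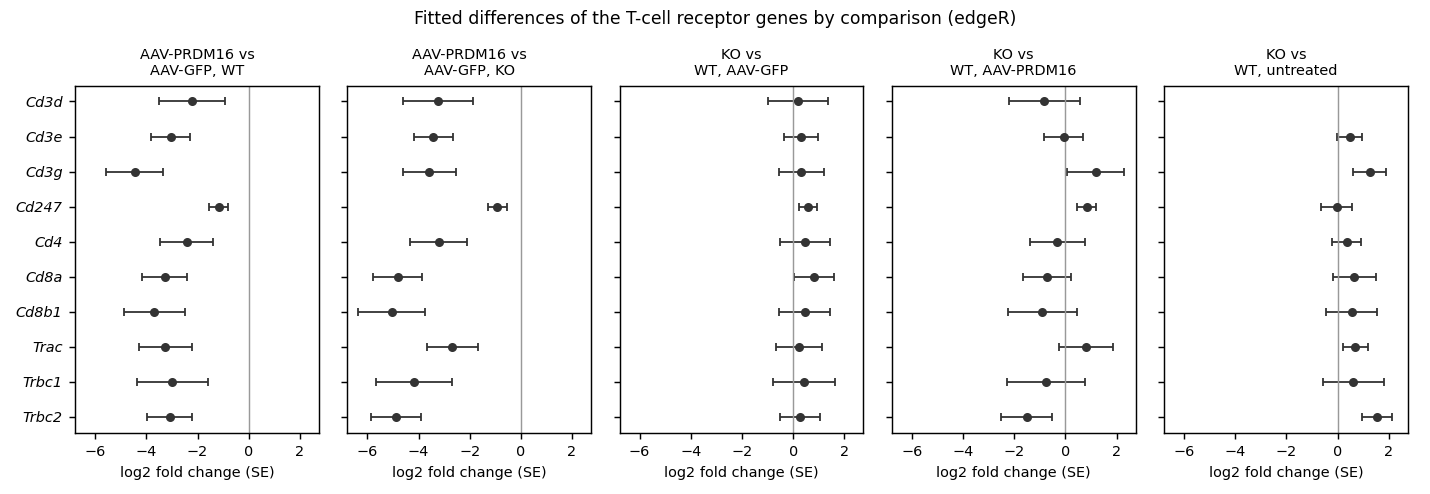
Fitted log2 fold change of each gene in 5 comparisons (points) with its standard error (bars), from edgeR. All 10 genes lay below 0 in both comparisons of AAV-PRDM16 with AAV-GFP, and Cd247 lay nearest to 0 there, at -1.17 in WT and -0.92 in KO; Cd3d was not tested in untreated mice.

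The interaction of genotype and virus, which asks whether the difference was larger in one genotype, was not detectable at this depth and number of mice. Its log2FC ran from -1.79 (*Trbc2*, SE 1.26) to 0.88 (*Cd3g*, SE 1.42). No gene passed an FDR of 0.05 (0.0% of all genes), and none of the 10 had an unadjusted p under 0.05 with edgeR (3.19% of all genes) or an FDR of 0.05 with DESeq2.

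No difference between genotypes passed the test within a virus. With AAV-GFP all 10 genes had a higher fitted level in KO, by 0.19 (*Cd3d*, SE 1.17) to 0.81 (*Cd8a*, SE 0.78) on the log2 scale. None passed an FDR of 0.05 with edgeR (0.0529% of all genes) or DESeq2, which gave no adjusted value for *Cd3d*, and none had an unadjusted p under 0.05 (9.18%). With AAV-PRDM16, 3 were higher and 7 lower in KO, none passed an FDR of 0.05 with either tool (0.0476% of all genes) and none had an unadjusted p under 0.05 with edgeR (13.7%). The interval of these differences was wide, since 1 SE was 0.37 or more in all of them. *Cd247* (log2FC 0.83, SE 0.38, FDR 0.371) and *Trbc2* (-1.51, SE 0.99, FDR 0.541) did not overlap between KO and WT with AAV-PRDM16, as 22.8% of all genes did not. Over both viruses *Cd247* was higher in KO by 0.7 (SE 0.27, FDR 0.182), the only one of the 10 higher at an unadjusted p under 0.05 (9.54% of all genes). No gene of the 10 passed an FDR of 0.05 over both viruses with edgeR or DESeq2, while 2.18% of all genes did.

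KO + AAV-PRDM16 was also set against WT + AAV-GFP, the comparison that asks whether KO tissue given PRDM16 differs from control tissue. All 10 genes were lower, with a median log2FC of -3.19. None passed an FDR of 0.05 with edgeR (0.00529% of all genes), and DESeq2 called 5 (0.831%). At an unadjusted p under 0.05, 9 were lower (4.42% of all genes), all but *Cd247* (-0.34, SE 0.37), and 5 met the study's rule (0.603%). That count was 0 without WT + AAV-GFP library 2 or 3 or without KO + AAV-PRDM16 library 1 or 3, 2 without WT + AAV-PRDM16 library 3, 3 without WT + AAV-PRDM16 library 2 or KO + AAV-GFP library 2, 8 without KO + AAV-GFP library 3 and 9 without WT + AAV-GFP library 1. The share of all genes in those fits is not given. Libraries did not overlap for *Cd3e*, *Cd247*, *Cd8a* and *Trbc2* (7.09% of all genes). For *Cd247* they barely parted: WT + AAV-GFP library 1 and KO + AAV-PRDM16 library 3 were both at 1.37 CPM when rounded. *Trbc2* had the largest difference at -4.6 (SE 0.98, FDR 0.355). This comparison shares its libraries with those above.

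The shares of the coreceptors varied between libraries. *Cd4* took 59.6%, 47.8% and 49.1% of *Cd4* and *Cd8a* counts in WT + AAV-GFP and 38.9%, 49.2% and 41.8% in KO + AAV-GFP. Exact 95% intervals were 44.7 to 51.0% in WT library 2, from 999 counts, and 39.4 to 44.3% in KO library 3, from 1628 counts, and the genotypes overlapped. With AAV-PRDM16 the totals were 5 to 54 counts per library and the share ran from 0.0 to 84.8%, too few counts to place it. *Cd8b1* made up 16.7% to 34.4% of *Cd8a* and *Cd8b1* counts with AAV-GFP. *Trbc1* made up 0 of 18 beta counts in WT + AAV-GFP library 1 (exact 95% interval 0.0 to 18.5%), 34.2% and 34.6% in libraries 2 and 3, and 20.7%, 46.6% and 36.9% in KO + AAV-GFP, within the limit on telling the copies apart.

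**Figure D3:**
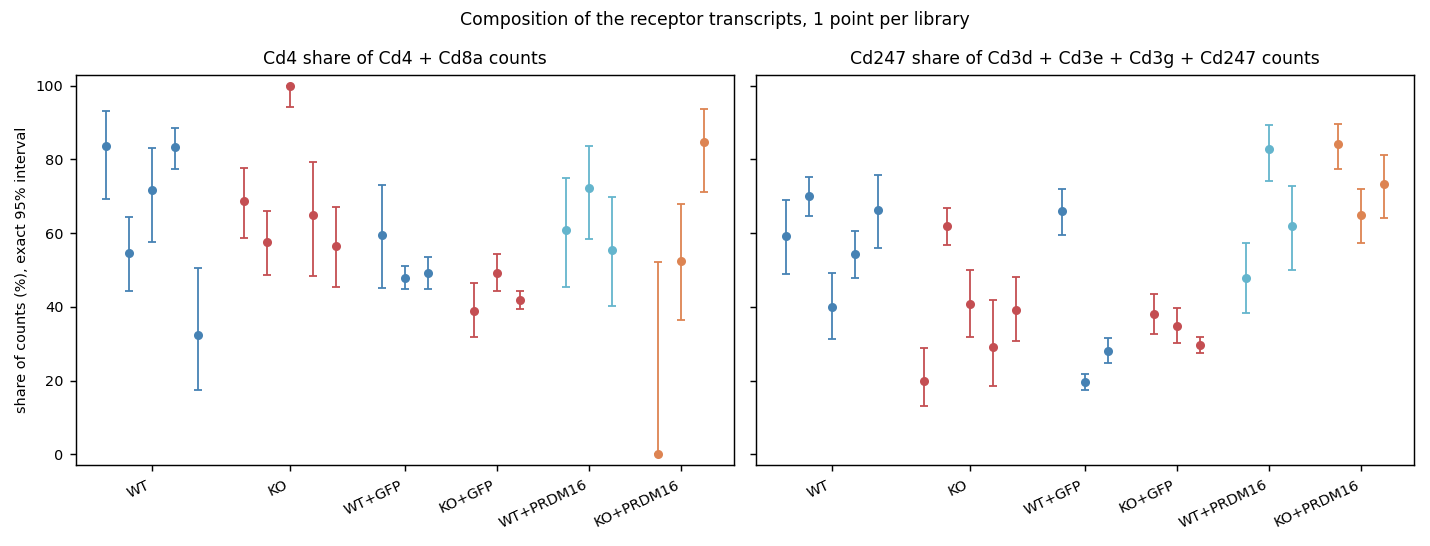
Share of Cd4 in the counts of Cd4 and Cd8a (left) and of Cd247 in the counts of the 4 signalling subunits (right), in percent, for each of 22 libraries with exact 95% binomial intervals (counting error only). The 6 AAV-GFP libraries sat between 38.9% and 59.6% for Cd4; the Cd247 share was 47.8% or more in all AAV-PRDM16 libraries and at most 38.0% in 5 of the 6 AAV-GFP libraries.

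Variable genes, which the rule did not use, gave a second view of receptor transcripts. Of 108 *Trav* and 22 *Trbv* genes in the tables, 38 and 17 had counts in KO + AAV-GFP library 3, with 302 and 348 counts in all. In WT + AAV-GFP libraries 2 and 3, 31 and 15 *Trav* genes held 153 and 105 counts, and 15 and 14 *Trbv* genes held 244 and 160 counts. The AAV-PRDM16 libraries held 0 to 7 *Trav* counts and 0 to 16 *Trbv* counts, and WT + AAV-GFP library 1 held 11 and 23. Many variable genes were thus present at once where the constant genes were high. A library cannot show more variable genes than it has counts of them, so these numbers do not compare diversity between libraries. For each 100 beta constant counts there were 53.2 to 59.8 *Trbv* counts in 4 of the 5 AAV-GFP libraries with more than 50 constant counts, and 42.7 in KO library 2. The leading *Trbv* gene took 35.3% of counts in KO + AAV-GFP library 3 (*Trbv3*, interval 30.3 to 40.6%), 24.2% in WT library 2 (*Trbv12-2*, 18.9 to 30.1%) and 57.1% in KO library 2 (*Trbv16*, 43.2 to 70.3%, from 56 counts). The leading gene differed between these 3 libraries, and *Trbv16* also led in WT + AAV-GFP library 1 and KO + AAV-GFP library 1. Variable genes resemble each other, so reads may be split among them.

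Other genes of the pathway were measured alongside. Of 25 genes of proximal receptor signalling, 24 were tested and 22 had a negative log2FC with AAV-PRDM16 over both genotypes. Of these, 5 passed the filter only through AAV-GFP. Of the other 19, 13 were lower at an unadjusted p under 0.05, with a median of -1.93, and none passed an FDR of 0.05 with edgeR (smallest 0.0527). The 3 most abundant of them, which many cell types use, had differences near 0: *Plcg1*, a phospholipase, had a log2FC of 0.0 (SE 0.08), *Cblb*, a ubiquitin ligase that restrains the receptor, -0.14 (SE 0.1) and *Csk*, the kinase that holds LCK inactive, -0.1 (SE 0.1). *Lck*, *Lat* and *Zap70*, named here for their textbook place next to the receptor and with their values already seen, had log2FCs of -3.0 (SE 0.6, FDR 0.0559), -2.8 (SE 0.51, FDR 0.0527) and -4.29 (SE 0.97, FDR 0.0709). *Zap70* was among the 5 that passed the filter only through AAV-GFP, so its selection favoured a lower value. *Lck* lay between 0.215 and 4.17 CPM with AAV-GFP and between 0.125 and 0.368 CPM with AAV-PRDM16. *Cblb* was past an FDR of 0.05 in other comparisons: it was higher in KO over both viruses (log2FC 0.63, SE 0.1, edgeR FDR 0.0131) and with AAV-PRDM16 (1.01, SE 0.14, FDR 0.038), but did not pass with AAV-GFP (0.25, SE 0.14, FDR 0.655). Its means were 24.9 ± 3.66 CPM in WT and 29.5 ± 1.81 CPM in KO with AAV-GFP, and 17.3 ± 2.45 and 34.8 ± 4.69 CPM with AAV-PRDM16 (SD, n = 3). The interaction was 0.77 (SE 0.2, FDR 1.0), and the call with AAV-PRDM16 was lost under 10 of 17 alternatives, including without any 1 of the AAV-PRDM16 libraries (FDR up to 0.158).

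Among 17 costimulatory and accessory receptors, 4 passed the filter only through AAV-GFP, and 12 of the other 13 were lower at an unadjusted p under 0.05 (median -2.18). *Ptprc*, the CD45 phosphatase of all leukocytes, had -2.08 (SE 0.39, FDR 0.0527) and *Il2rb*, an interleukin receptor chain of T and natural killer cells, -3.44 (SE 0.62, FDR 0.0527). *S1pr1*, also an endothelial receptor and by far the most abundant, had 0.22 (SE 0.16). Of 14 transcription factors of the T lineage, 2 passed the filter only through AAV-GFP, and 8 of the other 12 were lower at that threshold (median -1.01). The abundant *Zbtb7b* (0.13, SE 0.09) and *Ets1* (-0.12, SE 0.15) did not pass it. Of 4 constant genes of the gamma-delta receptor, only *Tcrg-C2* was tested, again through the AAV-GFP libraries alone: it was at 0.0538 to 0.896 CPM with AAV-GFP and at 0 in all 6 AAV-PRDM16 libraries, while *Trdc* and *Tcrg-C1* were at or under 0.153 CPM in the AAV cohort. No list named here held a gene past an FDR of 0.05 with edgeR in this comparison.

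Markers of other leukocytes were also lower with AAV-PRDM16. Of 9 natural killer genes, 8 passed the filter on low counts only through the AAV-GFP libraries, so their selection favoured lower values and they are not counted. The 1 other, *Klrk1*, had a log2FC of -2.93 (SE 0.71, FDR 0.0894). *Eomes* was at 0.0179 to 1.36 CPM with AAV-GFP and at most 0.0793 CPM with AAV-PRDM16, and *Klrd1* at 0.0896 to 1.24 and at most 0.119 CPM. The summed level of the 9 was 0.645 to 9.28 CPM with AAV-GFP and 0.232 to 0.885 CPM with AAV-PRDM16. Of 12 macrophage genes, 9 were lower at an unadjusted p under 0.05 (median -0.98), among them *Lyz2* (-1.47, SE 0.27), *C1qa* (-1.25, SE 0.29) and *C1qb* (-1.37, SE 0.27), whose list summed to 72.6 to 432.0 CPM with AAV-GFP and 53.5 to 120.0 CPM with AAV-PRDM16. Of 9 dendritic cell genes, 2 passed the filter only through AAV-GFP, and 4 of the other 7 were lower (median -1.35): *Itgax* had -2.22 (SE 0.53), while *Zbtb46* and *Itgae* had -0.17 (SE 0.14) and -0.2 (SE 0.21). These lists share cells and libraries with the 10 genes, and their part in the result was not tested.

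Markers of the thymus and lymph node were of both kinds. *Rag2* was at 0 in all 12 AAV libraries, *Rag1* and *Dntt*, which act in receptor rearrangement, were at or under 0.0542 CPM there, and *Glycam1*, of lymph node venules, was at 0 in all 22 libraries. *Ccl19* and *Madcam1* were at or under 0.0442 CPM in the AAV cohort. *Enpp2* (133 CPM), *Pdpn* (0.632 CPM) and *Ccl21a* (0.327 CPM, AAV means) of the lymph node list had log2FCs of -0.01 (SE 0.11), -0.17 (SE 0.32) and 0.54 (SE 0.59). *Cxcl13*, the lowest of the 4 tested genes of that list, had -0.85, and none of the 4 passed an unadjusted p under 0.05. The 7 matched genes of that list summed to 125 to 148 CPM with AAV-GFP and 94.8 to 166 CPM with AAV-PRDM16, and the 6 thymocyte genes to 59.8 to 85.9 and 56.8 to 91.5 CPM, nearly all of it *Enpp2* and *Cd1d1*. Their part in the result was not tested. *Cd1d1*, *Themis* and *Ptcra* led the thymocyte list, of which only *Themis*, also a T-cell signalling gene, was lower (-2.53, SE 0.57, FDR 0.0709). Of 10 tested B-cell genes 4 were lower at an unadjusted p under 0.05 (median -0.97). By sign alone, 8 of the 10 had a lower fitted level and 2 a higher one, by up to 0.95. *Jchain*, of antibody-secreting cells, had -3.3 (SE 0.63, FDR 0.0527) and reached 160.0 CPM. *Ighm* had -1.16 (SE 0.39) and *Cd22* -1.93 (SE 0.46), while *Ms4a1* (-0.88, SE 0.67) did not pass.

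In the same comparison of viruses over both genotypes, no gene of the fat or muscle lists passed an FDR of 0.05. Of 10 brown fat genes, 1 was higher at an unadjusted p under 0.05 and the median was 0.1, with *Ucp1* at 0.31 (SE 0.22), *Cidea* at 0.11 (SE 0.08) and *Cpt1b* at 0.1 (SE 0.07). None of 6 white fat genes (median 0.07) or 8 tested muscle genes (median -0.56) passed that threshold.

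**Figure D4:**
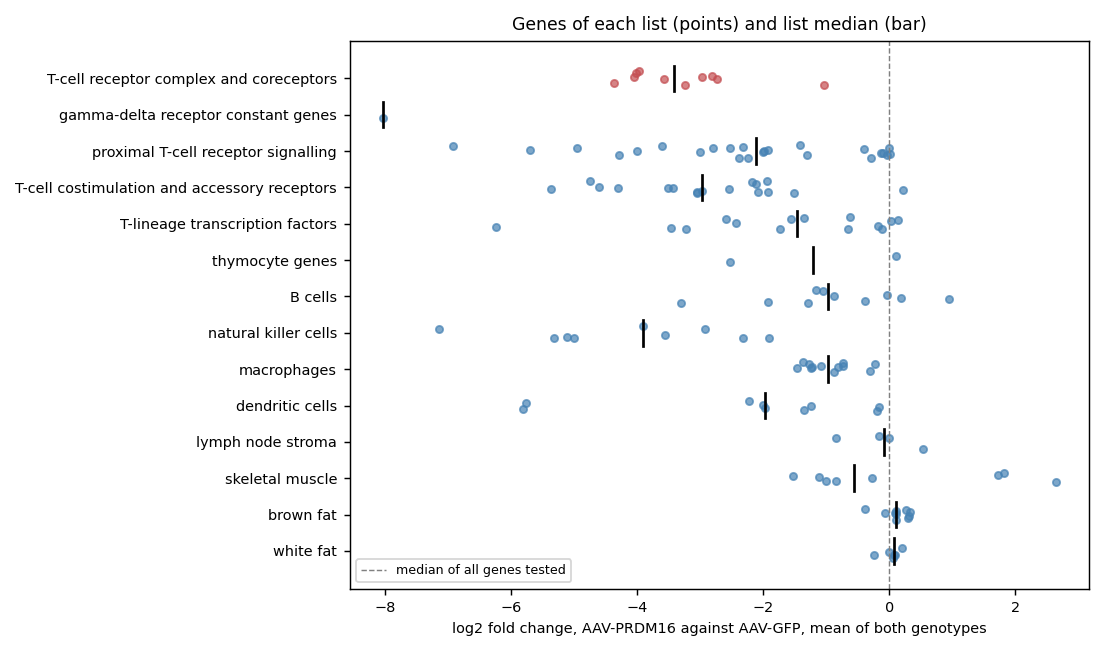
Log2 fold change of AAV-PRDM16 against AAV-GFP, mean of both genotypes, for each tested gene of 14 lists (points, spread vertically only to be seen) with the list median (bars) and the median of all genes (dashed line, at -0.01). The receptor genes had a median of -3.41 (2 of the 10 passed the low-count filter only through AAV-GFP), and the brown and white fat genes lay near 0. Other lists also held such genes, among them 8 of 9 natural killer genes, the only gamma-delta gene, 5 of 24 signalling and 4 of 17 costimulatory genes.

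The genes whose profile over libraries was most like the mean profile of the 10 were *Itgal*, *Limd2*, *Coro1a*, *Sema4d*, *Gzmb*, *Il2rb*, *Cd74*, *Zap70*, *H2-Eb1* and *H2-Ab1*, ranked by the smaller of Pearson's r over the 10 untreated and over the 12 AAV libraries. That smaller r ran from 0.939 for *Itgal*, a leukocyte integrin chain, to 0.878 for *H2-Ab1*, an MHC class II chain. In the AAV cohort the 10 genes followed each other, with a median r to the other 9 of between 0.67 (*Cd247*) and 0.89 (*Cd8a*). In untreated mice that median was between 0.13 (*Cd8b1*) and 0.59 (*Trbc2*). These values describe libraries that share groups and depth.

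In untreated BAT no difference between genotypes passed the test for the 10 genes. Their sum was 1.51, 3.02, 3.72, 4.26 and 1.73 CPM in WT and 3.07, 6.66, 3.53, 2.76 and 4.28 CPM in KO, and the groups overlapped. *Cd3g* was at 0.0876, 0.0248, 0.279, 0.226 and 0.153 CPM in WT and at 0.369, 0.601, 0.323, 0.278 and 0.251 CPM in KO. WT library 3 was the only WT library to reach into the KO range. *Trbc2* was at 0.114, 0.106, 0.206, 0.335 and 0.0863 CPM in WT and at 0.359, 0.731, 0.588, 0.139 and 0.626 CPM in KO, with KO library 4 among the WT values. *Cd3e* ranged from 0.115 to 0.573 CPM in WT and from 0.389 to 0.635 CPM in KO, *Trac* from 0.158 to 0.485 and from 0.318 to 0.749 CPM, and *Cd4* from 0.105 to 1.22 and from 0.516 to 0.771 CPM. *Cd8a* (up to 0.57 CPM), *Cd8b1* (up to 0.238), *Trbc1* (up to 0.31) and *Cd3d* (up to 0.28) each had at least 1 library at 0, and *Cd247* was between 0.214 and 2.28 CPM.

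**Figure D5:**
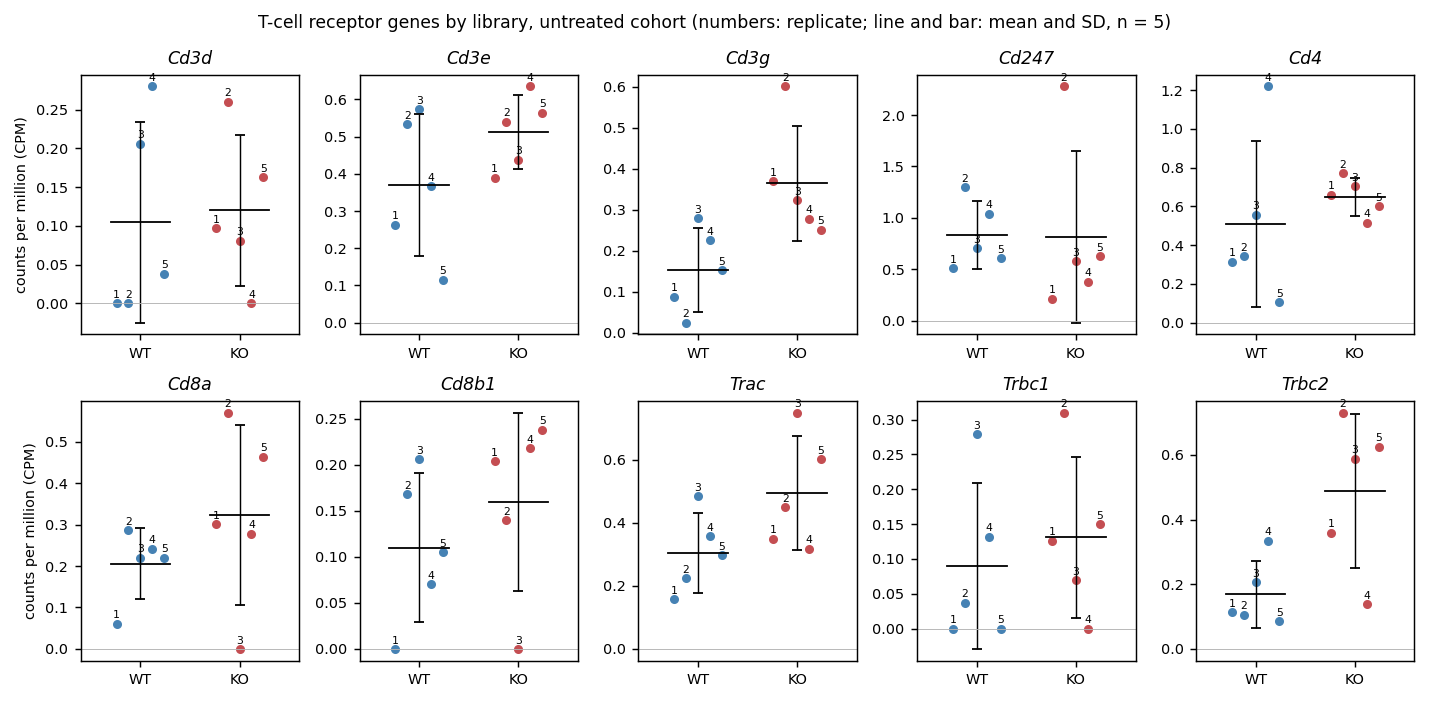
Level of each gene in each untreated library, in CPM on a linear axis that differs between panels (points numbered by replicate, horizontal line and bar for the mean and SD of 5 libraries). WT and KO overlapped in every panel, and KO library 2 stood apart for Cd247 at 2.28 CPM.

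None of the 9 tested genes passed an FDR of 0.05 with edgeR (0.0% of all genes) or DESeq2. The fitted log2FC of KO against WT was positive for 8 of them, with a median of 0.61 where that of all genes was 0.04. *Trbc2* (1.53, SE 0.59, FDR 0.305) was the only one higher at an unadjusted p under 0.05 (4.99% of all genes). It and *Cd3g* (1.25, SE 0.64, FDR 0.334) met the study's rule, as 6.04% of all genes did. That count of 2 fell to 0 without WT library 1, WT library 2 or KO library 5, without both WT 1 and 2, and in a fit with a term for whether a library held Y-linked RNA, and it was 3 without WT library 3. Without KO library 1, the one with *Cpeb2* at the WT level, *Trbc2* had a log2FC of 1.62 (FDR 0.187) and *Cd3g* 1.25 (FDR 0.311). Over all 16 alternatives the log2FC ran from 1.28 to 1.94 for *Trbc2* and from 0.78 to 1.56 for *Cd3g*. The FDR reached 0.867 for each. *Cd3e*, *Cd3g*, *Cd4* and *Trbc2* reached the limit of the low-count filter in every KO library but not in every WT library. Their selection thus favoured higher values in KO, and any count that holds them includes that. Skeletal muscle genes, all 10 of them higher in KO but none at an unadjusted p under 0.05, summed to 15.1 to 3320 CPM in WT and 8.18 to 6630 CPM in KO libraries. The 12 macrophage genes were likewise all higher in KO without passing that threshold (median 0.65). Their part in the result was not tested.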

How the data were processed

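RNA of BAT was sequenced as mRNA libraries made with the SureSelect XT HS2 kit. The authors deposited raw counts per gene, without normalization, as 1 table for each cohort. The submitters' processing notes name bcl2fastq 2.20, Trimmomatic 0.36, HISAT2 and the build GRCm38.p6. The counting tool, the handling of strand and that of duplicate reads are not given in the sources used here, so paralogs and antisense genes may share reads. Libraries were grouped by their labels. GENCODE M21 gave a symbol to 55227 of 55487 identifiers.

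Counts were filtered with filterByExpr (minimum count 10), scaled by TMM and compared with edgeR 4.0.16 in R 4.3.3, by the two-sided quasi-likelihood test with Benjamini-Hochberg adjustment over all genes tested. The untreated fit used 10 libraries and the AAV fit 12. Code was tested on simulated data. The fits were repeated with DESeq2 1.42.0, with RLE scaling, with every gene kept, with each library left out, with the replicate number as a block, with only the 2 groups compared and, in untreated mice, the fits without libraries in doubt. The genes and lists were chosen with earlier results of these data known. All 10 genes are named, with the 3 most abundant genes of each list, any past an FDR of 0.05 and the 10 most alike in profile (log2 CPM, prior count 2). Some genes of these lists are not reported here by name. Of the list symbols, 1 was not matched.

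The labels do not say that each library came from 1 animal, and p-values measure the spread between libraries. Libraries of a group differed by more than counting noise (median chi-square per gene at least 5.91), so none was taken as a repeat. A count of 0 was read as allowing 3 counts. Totals per library limit the precision of genes with few counts.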

Additional observations from a re-analysis of the deposited data

Results flagged for a closer look

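*Cd247* in untreated KO library 2 was at 2.28 CPM, far above the other 4 KO libraries, of which the nearest was at 0.626 CPM. The gap took a share of 0.801 of the group's range. Of 20 groups of 5 libraries examined for the 10 genes this was the 1 that stood out, and chance gives about 1 in 20. *Pou2f1*, whose exons overlap those of *Cd247*, was at 6.78 CPM in that library and at 2.86 to 5.03 CPM in the other KO libraries. In untreated WT libraries 1 and 2, *Pou2f1* was higher, at 14.8 and 17.9 CPM, and *Cd247* lower, at 0.508 and 1.3 CPM. The part of shared reads was not tested.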

How the results depend on the processing

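Members past an FDR of 0.05 stayed at 0 under every alternative for KO against WT (untreated, AAV-GFP, AAV-PRDM16 and both viruses) and for the interaction. For AAV-PRDM16 against AAV-GFP over both genotypes the count of 0 became 8 with DESeq2, 4 with RLE scaling, 5 without a filter, and between 0 and 7 with 1 library left out. With DESeq2 it was 5 in WT, 5 in KO and 5 for KO + AAV-PRDM16 against WT + AAV-GFP. No fold change of the 10 genes changed sign in either genotype or their mean. By the study's rule, the count in WT was 6 and became 2 without a filter and between 0 and 9 with 1 library left out. In KO it was 6 and ran from 0 to 9. For KO + AAV-PRDM16 against WT + AAV-GFP it was 5, 9 with DESeq2, and from 0 to 9. By this rule the share of all genes is given only for edgeR with all libraries. Counts under the alternatives therefore cannot be set against that of all genes. In untreated mice it was 2, became 0 without WT libraries 1 and 2 and 0 with Y-linked transcripts as a covariate, and ran from 0 to 3. The cause was not tested.

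Deviations of like-numbered libraries from their group means correlated between -0.292 and 0.154. Unlike-numbered libraries were not compared, so this does not settle whether replicate numbers pair the libraries. The replicate block left 0 members past an FDR of 0.05 in every comparison, and moved the study's count in WT from 6 to 0.

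All genes past an FDR of 0.05 numbered 7 for the virus over both genotypes, from 0 to 602 over the alternatives, 0 in WT (to 152), 0 in KO (to 266), 1 for KO + AAV-PRDM16 against WT + AAV-GFP (to 157), 412 for genotype over both viruses (89 to 1584), 10 with AAV-GFP (0 to 243) and 9 with AAV-PRDM16 (0 to 619). RLE scaling moved no group's summed level by more than its SD. Per kilobase the *Cd8b1* share rose to 55.4% in KO, 55.2% in WT + AAV-GFP, 47.8% in WT + AAV-PRDM16 and 44.3% in KO + AAV-GFP, and the *Cd247* share in KO + AAV-GFP fell to 24.9%, as the exon lengths set it. Untreated counts of 0 to 228 per gene and library limit that cohort.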

Other observations

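Of 12 macrophage genes, 5 were higher in KO over both viruses at an FDR of 0.05 with edgeR and 11 at an unadjusted p under 0.05 (median log2FC of the 12, 0.98). Of all 18899 genes tested, 200 were higher at that FDR and 1803 (9.54%) at that p. *Cd163*, a scavenger receptor, was at 7.36 ± 1.47 CPM in KO and 3.22 ± 1.25 CPM in WT (SD, n = 6; log2FC 1.23, SE 0.18, edgeR FDR 0.0095). *Mrc1*, the mannose receptor, had a log2FC of 0.88 (SE 0.17, FDR 0.0264), *Csf1r* 1.02 (SE 0.21, FDR 0.0349), *Itgam* 1.7 (SE 0.37, FDR 0.0379) and *C1qb* 1.14 (SE 0.27, FDR 0.0497). For the 10 receptor genes the median of that comparison was 0.07, and the difference between these lists was not tested.

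Of 10 brown fat genes, 2 were lower in KO over both viruses at an FDR of 0.05 and 6 at an unadjusted p under 0.05. Of all 18899 genes tested, 212 were lower at that FDR and 1655 at that p. *Cidea* was at 1160 ± 72.9 CPM in KO and 1520 ± 176 CPM in WT (SD, n = 6; log2FC -0.39, SE 0.08, edgeR FDR 0.0378), and *Cox8b*, a subunit of cytochrome oxidase, had a log2FC of -0.66 (SE 0.12, FDR 0.0189).

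*Cd163*, and *Cblb* among the signalling genes, stayed past the threshold under all 16 alternatives. *Cox8b* did not without WT + AAV-PRDM16 library 3 (edgeR FDR 0.0532), KO + AAV-PRDM16 library 1 (0.0655) or KO + AAV-GFP library 2 (0.0549). The other 5 genes were lost under 7 to 11 of the 16 alternatives, nearly all of them with 1 library left out: *Mrc1* and *Csf1r* reached FDRs of 0.0788 and 0.0972 without KO + AAV-PRDM16 library 1, *Itgam* and *Cidea* both 0.106 without it, and *C1qb* 0.126 without WT + AAV-PRDM16 library 1.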
